A study of Mus musculus with 10 samples.

Results

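Tagged hippocampal cells from mice in the neutral condition were compared with home-cage mock samples by RNA sequencing across all genes. The comparison used every library that carries either label, which gave 6 of the 10 libraries of the series, 3 neutral and 3 mock. The neutral mice were placed in the conditioning cage with neither an aversive nor an appetitive stimulus, and the mock mice stayed in the home cage. All were male, 5 weeks old and described in the study's methods as wild-type C57BL/6 animals. The tag was a pair of adeno-associated viruses injected into the ventral hippocampus. One, AAV9-c-Fos-tTA, places the transactivator tTA under the c-Fos promoter, and the other, AAV9-TRE-ChR2-EYFP, answers to tTA with ChR2-EYFP while doxycycline is out of the diet. The c-Fos promoter is not restricted to neurons. Each group carried the same virus and diet by its labels, although the study's methods call the mock group an untagged control, so whether the mock cells were selected for EYFP is not settled by the sources. The labels and methods describe sorted cells while the study's results speak of nuclei, so which of these was sequenced is not settled either. The labels put 8 pooled mice behind each condition, while the methods give a smaller number for mock, and separate pools of animals for the 3 libraries of each group are nowhere stated. The p-values below therefore measure the spread between these libraries, which may be technical.

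The other 4 libraries of the series came from cells tagged during foot shock (aversive, 2 libraries) or exposure to a female (appetitive, 2 libraries). They entered the filter on low counts, the scaling of the libraries and the estimate of the spread, while neutral was compared with mock alone. Neutral libraries also differed from all others in how they were made. They were prepared from total RNA with the SMART-Seq v4 kit and sequenced on the NovaSeq 6000 in paired reads of 100 bases, whereas the mock, aversive and appetitive libraries were labelled as polyA RNA and sequenced on the HiSeq 2500 in single reads of 40 bases. Kit, sequencer and group cannot be told apart in this comparison.

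The hippocampus holds excitatory pyramidal neurons, inhibitory interneurons, astrocytes, oligodendrocytes, microglia and vessels, and it borders the choroid plexus, an epithelium in the brain ventricles that makes cerebrospinal fluid. Ependymal cells with motile cilia line the ventricle beside it. A c-Fos tag is used to mark neurons that were active during an experience, so markers of the pyramidal neuron are the first check of what the sorted samples contain. In a bulk sample, fewer cells of a type and less RNA per cell cannot be told apart.

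The mock libraries held 29194873, 20505550 and 49880042 counts, and the neutral libraries 60077131, 67650693 and 62741023. Levels are given as CPM, the counts of a gene per 1000000 counts of a library whose size is scaled by edgeR's TMM factor, and are not divided by gene length. With every library thinned to 16968588 counts, 20229 to 27220 genes had at least 1 count in the mock libraries and 16965 to 18359 in the neutral libraries. Neutral libraries were thus deeper and detected fewer genes. Mitochondrial genes took 2.75% to 4.63% of mock counts and 10.5%, 3.01% and 4.09% of the counts of neutral libraries 1, 2 and 3. Mbp, the myelin basic protein gene, was the most abundant gene of all 3 mock libraries, and Ttr, which encodes transthyretin, was that of all 3 neutral libraries. By the share of their most abundant genes, mock library 3 and neutral library 2 were the lowest of their groups. The 20 most abundant genes took 14.7% of the counts of mock library 3 against 45.0% and 40.4% in mock libraries 1 and 2, and 14.8% in neutral library 2 against 31.8% and 22.8% in neutral libraries 1 and 3.

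Of 19754 genes tested, 17 differed between neutral and mock at an adjusted p under 0.05 in edgeR's quasi-likelihood test with Benjamini-Hochberg adjustment. Msx1 was the 1 gene that rose, which is 0.00506% of the genes tested, and 16 genes fell, which is 0.081%. All 17 were protein-coding, and each had the same adjusted p of 0.0482. The spread between libraries of a group was wide, with a common coefficient of variation of 122%, and 2658 genes had an unadjusted p under 0.05, 735 of them higher and 1923 lower in neutral. These calls turned on single libraries. No gene passed when mock library 1, 2 or 3, neutral library 1, or either aversive library was left out, 2 passed without neutral library 3, and 27 without neutral library 2. The number was 77 without appetitive library 1 and 84 without appetitive library 2. All 17 genes kept their direction in each of these fits, but none of them overlapped between the groups, so a change of direction was hardly possible. A description that needs no model is therefore given beside each result, namely whether every neutral library lay above, or every neutral library lay below, all 3 mock libraries. The filter and scaling behind it still used all 10 libraries. By that measure 3164 genes (16%) lay above and 3149 (15.9%) lay below, and 3 libraries against 3 cannot give a 2-sided exact permutation p under 0.1. With 1 mock or neutral library left out overlap is rarer, and the shares ran from 15.7% to 26.1% above and from 19% to 25.4% below. A list's count with 1 library left out can therefore hardly fall, so such counts below are no check on the list.

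**Figure D1:**
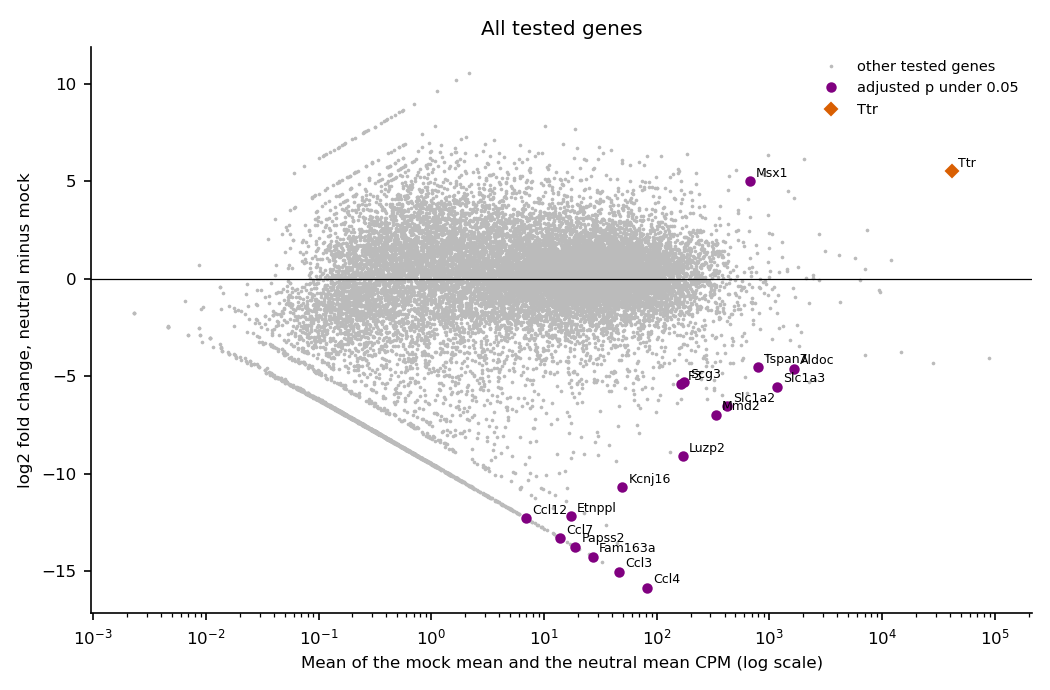
Each point is 1 of the 19754 tested genes, with the mean of the 2 group mean CPM values on a log axis and the log2 fold change of neutral against mock on the vertical axis. Purple points are the 17 genes with an adjusted p under 0.05, of which Msx1 lies above 0 and 16 lie below. The slanting line of points at the lower left is formed by genes with no counts in the neutral libraries.

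Choroid plexus genes were prominent in the neutral libraries. Ttr, the carrier of thyroxine in cerebrospinal fluid and the defining product of the choroid plexus, was at 1066, 1072 and 3156 CPM in mock libraries 1, 2 and 3 and at 128900, 20730 and 93600 CPM in neutral libraries 1, 2 and 3. The lowest neutral library thus lay far above the highest mock library. Neutral exceeded mock by 5.52 ± 0.87 (SE) on the log2 scale, and the adjusted p in edgeR's quasi-likelihood test, 0.0514, just missed the threshold. In the remaining libraries Ttr was at 13200 and 6793 CPM in the aversive pair and at 848 and 2897 CPM in the appetitive pair. Ttr alone took 13.6%, 2.7% and 11.6% of the counts of neutral libraries 1, 2 and 3.

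The whole choroid plexus list of 14 markers was tested, and 12 of its members had every neutral library above every mock library, against 16% of all genes. None had the reverse, and none passed the adjusted test. The median log2 fold change of the list was 4.28, beside 0.08 over all tested genes. Its summed level was 2692, 2656 and 7441 CPM in mock libraries 1 to 3 and 150900, 31790 and 115300 CPM in neutral libraries 1 to 3. Kcnj13, a potassium channel of the choroid epithelium, was at 10.6, 12.8 and 45.5 CPM in mock and at 2780, 676 and 2265 CPM in neutral. Enpp2, the secreted enzyme autotaxin, was at 1493, 1487 and 3718 CPM in mock and at 13720, 9133 and 14760 CPM in neutral. Sostdc1, a secreted antagonist of BMP and Wnt signals, was at 9.32, 13.3 and 38.8 CPM in mock and at 1417, 355 and 1187 CPM in neutral. For each of these 3 genes mock library 3 was the highest mock library and neutral library 2 the lowest neutral one, as for Ttr. Their adjusted p was 0.174 in edgeR's quasi-likelihood test. The 2 members that overlapped were Clic6 and Slc4a5. With any 1 mock or neutral library left out 11 to 14 members had the neutral libraries above, beside 15.7% to 26.1% of all genes.

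**Figure D2:**
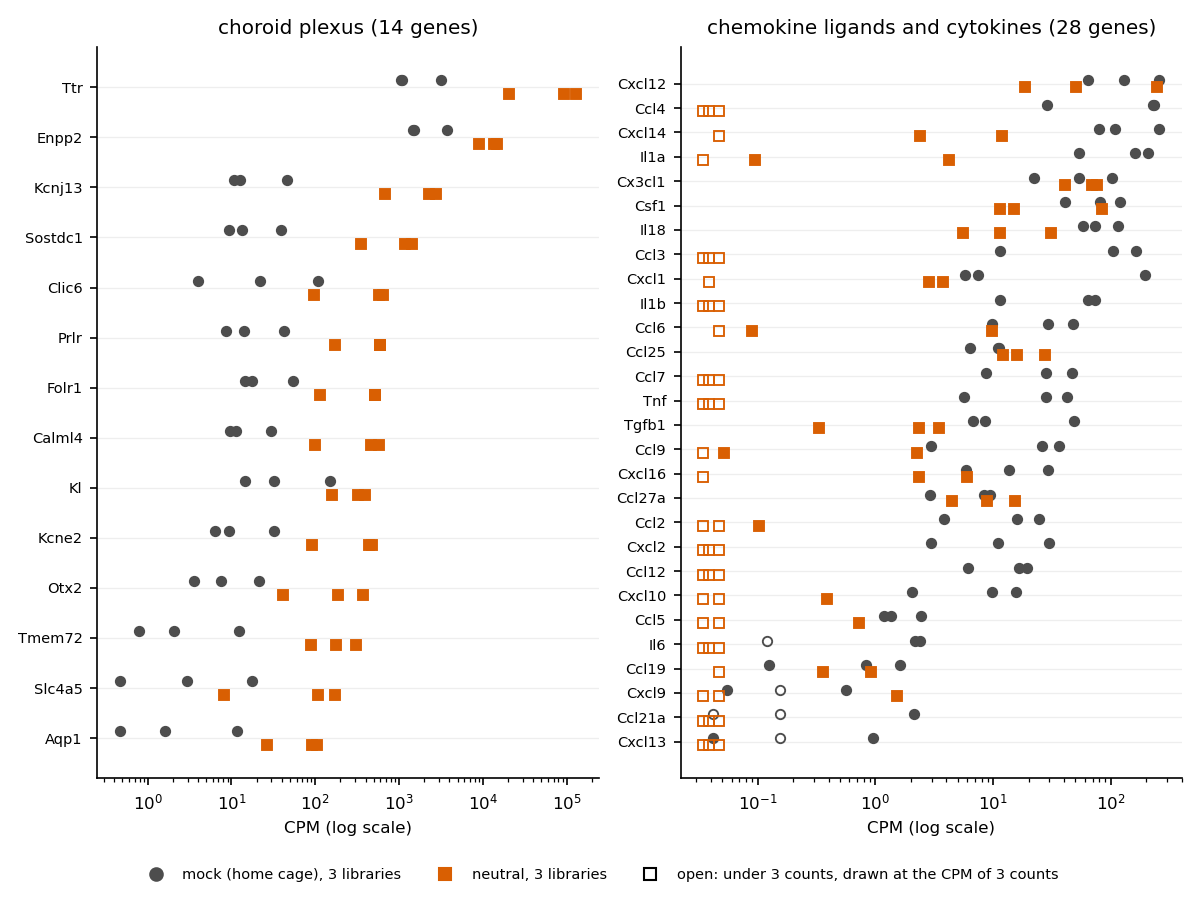
CPM of each gene of the choroid plexus list (left) and of the chemokine and cytokine list (right) in the 3 mock libraries (grey circles) and the 3 neutral libraries (orange squares), on log axes. Open symbols stand for fewer than 3 counts and are drawn at the CPM that 3 counts would give in that library. Neutral squares lie to the right for 12 of the 14 choroid plexus genes, and 18 of the chemokine and cytokine genes have them to the left.

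Ependymal and motile cilia genes followed the same order. Of 22 markers, 14 (63.6%, against 16% of all genes) had the neutral libraries above mock and none below, with a median log2 fold change of 2.62. Their summed level was 109, 206 and 377 CPM in mock and 1967, 831 and 1754 CPM in neutral. Rsph1 and Rsph9 encode parts of the radial spoke head of motile cilia. Rsph1 was at 6.45, 13.8 and 27.3 CPM in mock and at 239, 66.7 and 227 CPM in neutral, and Rsph9 at 20.6, 23.0 and 22.8 CPM in mock and at 284, 93.3 and 286 CPM in neutral. Tekt1, a tektin of the ciliary axoneme, was at 6.85, 13.0 and 17.8 CPM in mock and at 210, 50.4 and 186 CPM in neutral. Cfap126, a cilia-associated protein gene, was at 2.55, 3.80 and 11.04 CPM in mock and at 187, 39.6 and 128 CPM in neutral. None of these 4 genes overlapped between the groups, and none passed the adjusted test. Between 14 and 18 members had the neutral libraries above when a mock or neutral library was left out, beside 15.7% to 26.1% of all genes.

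A small set of loci gave counts in the neutral libraries alone. With at least 10 counts in each neutral library and 0 in every mock library, 5 genes met this rule, namely Mir204, Mir34b, Gm48956, Gm16069 and Gm24762, the last 2 named after their values were seen. Mir204 (chromosome 19, 22750605 to 22750672, plus strand, GRCm38) lies within Trpm3 (chromosome 19, 22139046 to 22995410, plus strand) and overlaps no exon of another annotated gene, so it is intronic there. It had 53, 58 and 30 counts in neutral libraries 1, 2 and 3. Trpm3, a cation channel gene named here for its position after the values were seen, was at 25.1, 16.6 and 62.9 CPM in mock and at 1367, 166 and 936 CPM in neutral, with no overlap. Mir34b (chromosome 9, 51103562 to 51103645, minus strand) had 83, 21 and 26 counts. Against 3 counts in 1 mock library, at the highest of the mock floors (0.156 CPM), the mean neutral level was at least 4.04-fold higher for Mir204 and at least 4.02-fold higher for Mir34b. Libraries of this kind do not capture the mature microRNA, so these counts do not measure it. Because the rule itself asks for 0 counts in every mock library, the split between the groups at these loci is no test. With at least 30 counts asked of each neutral library, 1 gene met the rule. The mature sequences encoded at the 2 loci, from RefSeq on GRCm38.p6, are shown because both loci met the rule of 10 counts, with the seed (bases 2 to 8) in capitals:
mmu-miR-204-5p: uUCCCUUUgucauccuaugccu
mmu-miR-204-3p: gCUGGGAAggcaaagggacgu
mmu-miR-34b-5p: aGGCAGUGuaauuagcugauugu
mmu-miR-34b-3p: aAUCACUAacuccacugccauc
No seed is shared among these 4 sequences. Gm48956, a lincRNA gene with an exon that overlaps Gm5468, had 50, 14 and 11 counts.

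Msx1, a homeobox transcription factor gene (chromosome 5, 37820485 to 37824583, minus strand), was the 1 gene that rose past the threshold. It was at 26.4, 43.8 and 48.4 CPM in mock libraries 1 to 3 and at 2075, 552 and 1268 CPM in neutral libraries 1 to 3. On the log2 scale it rose by 5.04 ± 0.77 (SE), with an adjusted p of 0.0482 in edgeR's quasi-likelihood test. In the aversive and appetitive libraries it was at 29.7 to 119 CPM.

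The 8 genes that followed Msx1 and Ttr among those higher in neutral had adjusted p-values from 0.0675 to 0.0966 in edgeR's quasi-likelihood test, and in each of them every neutral library lay above every mock library. Igfbp2, an insulin-like growth factor binding protein of the choroid plexus and astrocytes, was at 198, 75.2 and 92.1 CPM in mock and at 4323, 665 and 3471 CPM in neutral. Slc22a17, a receptor for lipocalin, was at 186, 85.7 and 253 CPM in mock and at 4432, 1309 and 3648 CPM in neutral. Spint2, a Kunitz-type inhibitor of serine proteases of epithelia, was at 14.8, 16.7 and 35.3 CPM in mock and at 1277, 201 and 1088 CPM in neutral. Again neutral library 2 was the lowest of its group for all 3 genes. Hemk1, a methyltransferase gene, was at 19.1, 12.4 and 20.96 CPM in mock and at 577, 155 and 435 CPM in neutral. Rgs11, a regulator of G protein signalling, was at 3.07, 4.43 and 5.43 CPM in mock and at 713, 70.9 and 315 CPM in neutral. Pcolce, an enhancer of procollagen processing, was at 8.96, 14.3 and 17.4 CPM in mock and at 398, 126 and 427 CPM in neutral. Their log2 fold changes ran from 4.16 for Slc22a17 to 6.41 for Rgs11. Dalrd3 and Chchd10, the latter encoding a protein of the mitochondrial intermembrane space, had log2 fold changes of 3.74 and 3.52. Exons of Rgs11, Pcolce, Dalrd3 and Chchd10 overlap those of a neighbouring gene, and 12.6% of the 40-base windows in Dalrd3 transcripts also occur in transcripts of Wdr6, so the counts of these 4 genes are less certain.

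**Figure D3:**
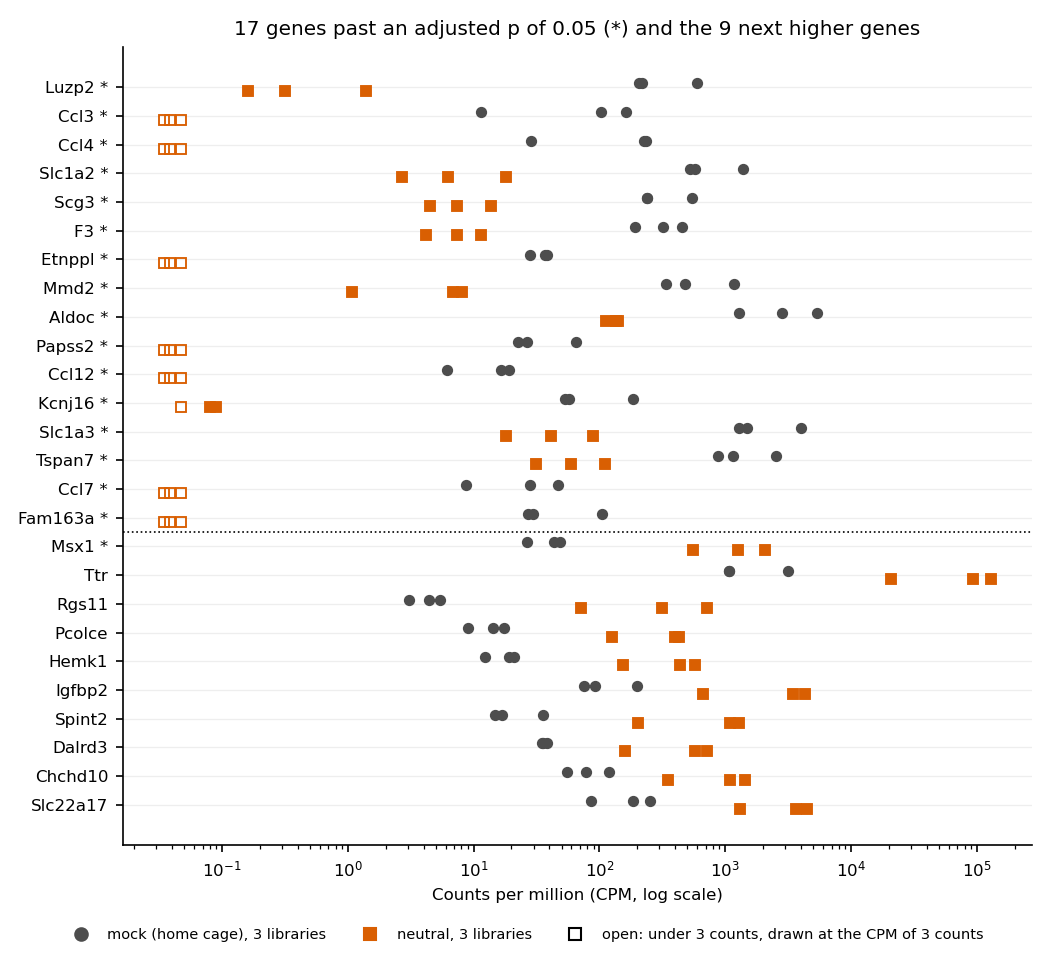
CPM in each mock library (grey circles) and neutral library (orange squares), on a log axis, for the 16 genes that fell in neutral (above the dotted line), Msx1, which rose, and the 9 genes of next smallest p-value that were higher in neutral. A star marks an adjusted p under 0.05, and open symbols stand for fewer than 3 counts, drawn at the CPM of 3 counts. The groups do not overlap for any of the 26 genes.

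Of the 16 genes that fell, 3 were on the astrocyte list. Slc1a2 and Slc1a3 encode the transporters GLT-1 and GLAST, which clear glutamate from the synapse into astrocytes. Slc1a2 was at 1395, 524 and 577 CPM in mock and at 2.71, 6.31 and 17.9 CPM in neutral, a log2 fold change of -6.53 ± 0.89 (SE). Slc1a3 was at 4024, 1292 and 1491 CPM in mock and at 18.1, 89.0 and 41.5 CPM in neutral, a log2 fold change of -5.52 ± 0.83. Aldoc, the brain form of aldolase and an astrocyte enzyme, was at 5349, 2833 and 1279 CPM in mock and at 114, 141 and 136 CPM in neutral, a log2 fold change of -4.60 ± 0.67. In all 3 genes the highest neutral library lay well below the lowest mock library. They are the 3 of 25 tested astrocyte markers that were called, and 17 of the 25 had every neutral library below every mock library, against 15.9% of all genes. The median log2 fold change of the list was -3.67. Apoe and Clu, which encode the apolipoproteins E and J, did not follow. Apoe was at 10810, 5040 and 3561 CPM in mock and at 7570, 3438 and 7532 CPM in neutral, and Clu at 4598, 1911 and 1848 CPM in mock and at 3707, 926 and 3532 CPM in neutral, so that the groups overlapped for both. Both genes are also made by choroid plexus and ependyma. The summed astrocyte level was 42270, 18750 and 15260 CPM in mock and 13890, 7300 and 13920 CPM in neutral. The number of members with the neutral libraries below was 17 to 20 with any 1 mock or neutral library left out, beside 19% to 25.4% of all genes.

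The other genes that fell were on none of the cell type lists, and Luzp2, F3, Mmd2 and Etnppl among them are known from astrocytes or other glia. Luzp2, a leucine zipper protein gene, had the smallest p-value of all and was at 599, 205 and 218 CPM in mock and at 0.316, 0.162 and 1.39 CPM in neutral. Luzp2 had a log2 fold change of -9.09 ± 1.14 (SE) and an adjusted p of 0.0482 in edgeR's quasi-likelihood test. F3, which encodes tissue factor, was at 457, 319 and 193 CPM in mock and at 4.18, 11.4 and 7.36 CPM in neutral. Mmd2, a membrane protein gene, was at 1170, 481 and 336 CPM in mock and at 8.06, 1.09 and 6.82 CPM in neutral. For these 3 genes the lowest mock value was 193 CPM and the highest neutral value 11.4 CPM. Etnppl, which encodes the ethanolamine-phosphate phospholyase, was at 36.8, 38.2 and 28.2 CPM in mock and had a single count in the 3 neutral libraries together. Over the counts of each group's 3 libraries together, scaled by library size, the ratio of mock to neutral was 7230, and the counting error of that 1 count gives a 95% interval from 1300 to 285000. Kcnj16, an inwardly rectifying potassium channel gene, was at 185, 57.4 and 53.4 CPM in mock and had 0, 7 and 7 counts in neutral libraries 1, 2 and 3. Papss2, which makes the sulfate donor for sulfation, was at 64.9, 26.6 and 22.4 CPM in mock and had 0 counts in every neutral library, so that it was at least 802-fold lower when 3 counts in 1 library, at the highest of the neutral floors (0.0473 CPM), stand for the neutral mean, as for all such bounds below. Tspan7, a tetraspanin gene on chromosome X, was at 2532, 1156 and 874 CPM in mock and at 31.0, 111 and 59.1 CPM in neutral. Fam163a, a membrane protein gene, was at 105, 29.9 and 27.3 CPM in mock and at 0 counts in neutral, at least 1140-fold lower. It was also low elsewhere, at 2.10 and 1.94 CPM in the aversive and 0 and 0.0524 CPM in the appetitive libraries. Kcnj16 was at 36.2 and 35.0 CPM in the aversive and 0.156 and 0.0524 CPM in the appetitive libraries. Luzp2, F3, Mmd2, Etnppl, Papss2 and Tspan7 were higher in every aversive and appetitive library than in any neutral one.

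Microglial genes lay lower in neutral across nearly the whole list. Of 22 markers, 20 (90.9%, against 15.9% of all genes) had every neutral library below every mock library and none the reverse. The log2 fold changes of all 22 lay between -5.04 and -2.93 with a median of -4.18. None passed the adjusted test. Summed over the list, the level was 2625, 4229 and 16210 CPM in mock and 52.0, 747 and 513 CPM in neutral. Csf1r, the receptor that microglia depend on for survival, was at 399, 372 and 2768 CPM in mock and at 0.631, 80.1 and 26.6 CPM in neutral. C1qb, a chain of complement C1q, was at 240, 575 and 1096 CPM in mock and at 3.96, 78.3 and 54.9 CPM in neutral. Mock library 3 was the highest mock library for both of these genes, and neutral library 1 was the lowest neutral one. Leaving out any 1 mock or neutral library left 20 to 22 members with the neutral libraries below, beside 19% to 25.4% of all genes. Trem2 and Fcrls were the 2 members that overlapped.

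Chemokines, which microglia and macrophages release, gave 4 of the 16 genes that fell. They are small secreted proteins that attract immune cells. Ccl3 and Ccl4 encode the neighbouring inflammatory proteins MIP-1 alpha and MIP-1 beta, and Ccl7 and Ccl12 encode monocyte attractants, and all 4 genes lie on chromosome 11. Ccl4 was at 28.6, 228 and 235 CPM in mock libraries 1, 2 and 3, from 717, 4374 and 16998 counts, and had 0 counts in all 3 neutral libraries, at least 3460-fold lower by the same floor of 3 counts in 1 library. Ccl3 was at 11.4, 163 and 104 CPM in mock and at 0 counts in neutral, at least 1960-fold lower. Ccl7 was at 8.68, 46.7 and 28.1 CPM in mock and at 0 counts in neutral, at least 588-fold lower. Ccl12 was at 6.13, 16.6 and 19.2 CPM in mock and at 0 counts in neutral, at least 295-fold lower. All 4 genes fell at an adjusted p of 0.0482 in edgeR's quasi-likelihood test, and mock library 1 was the lowest mock library for each. No 40-base window of their transcripts occurs in transcripts of another gene in the annotation, although unannotated sequence and inexact matches were not searched.

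The absence was not common to the whole series. Ccl4 was at 654 and 71.8 CPM in the aversive libraries and at 583 and 267 CPM in the appetitive libraries, and Ccl3 at 292 and 104 CPM in the aversive and at 274 and 120 CPM in the appetitive libraries. Ccl7 was at 55.4 and 30.6 CPM in the aversive libraries and at 0.156 and 0.262 CPM in the appetitive ones. Among the 10 libraries the 3 neutral ones were thus the only ones at 0 for Ccl3, Ccl4 and Ccl12.

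On the list of 28 chemokine ligands and cytokines, 27 were tested and 4 were called lower, against 0.081% of all genes. Every neutral library lay below mock for 18 (66.7%, against 15.9% of all genes). Ccl25 alone (3.7%, under the 16% of all genes) had every neutral library above. With DESeq2 size factors, with no filter on low counts or on the 6 libraries alone, the number above was 0. In the main fit the median log2 fold change of the list was -4.95, or -4.81 with the genes at 0 counts held at their bounds. At 0 counts in every neutral library were Ccl3, Ccl4, Ccl7, Ccl12, Ccl21a, Cxcl13, Il1b and Il6. Il1a, which encodes interleukin 1 alpha, was at 53.2, 206 and 161 CPM in mock and at 0.0946, 0 and 4.19 CPM in neutral. Cxcl14 was at 256, 108 and 79.4 CPM in mock and at 0, 11.9 and 2.40 CPM in neutral. Cxcl12, a chemokine of vessels and neurons, was the exception among the abundant members, at 63.99, 130 and 258 CPM in mock and at 18.6, 248 and 51.0 CPM in neutral. Of 16 chemokine receptors 12 were tested, and 5 of these (41.7%, against 15.9% of all genes) had the neutral libraries below and none above.

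The promoters of Ccl3 and Ccl12 are shown because these are the 2 of the 4 called chemokine genes with an entry in the RefSeq promoter table. Each line is the 250 bases before the start of the gene, read on the gene's strand of GRCm38.p6, at chr11:83649379-83649628 (minus strand) for Ccl3 and chr11:82101595-82101844 (plus strand) for Ccl12. Capitals mark the letters TATAA, or TTATA, its reverse complement, and the 2 overlap in Ccl12:
Ccl3: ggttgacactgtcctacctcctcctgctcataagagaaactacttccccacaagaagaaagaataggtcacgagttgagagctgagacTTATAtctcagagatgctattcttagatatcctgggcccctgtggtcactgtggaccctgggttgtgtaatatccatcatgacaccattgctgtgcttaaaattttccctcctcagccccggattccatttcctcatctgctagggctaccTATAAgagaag
Ccl12: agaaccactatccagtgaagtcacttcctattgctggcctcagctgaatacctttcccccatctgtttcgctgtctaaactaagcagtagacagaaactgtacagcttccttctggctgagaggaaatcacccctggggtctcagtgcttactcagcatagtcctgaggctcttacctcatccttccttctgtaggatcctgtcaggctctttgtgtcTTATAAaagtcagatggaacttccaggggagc
These letters occur on either strand in 22.8% of 32851 promoters of the same length, and in 4 of the 21 promoters listed for 15 of the 17 called genes. The match describes the sequence and is not evidence of a site in use.

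Blood cell genes also lay lower in neutral. Of 13 tested members 8 (61.5%, against 15.9% of all genes) had the neutral libraries below and none above, with a median log2 fold change of -4.69. The summed level was 390, 2688 and 574 CPM in mock and 4.23, 75.5 and 19.5 CPM in neutral. Hbb-bs, a beta globin gene, was at 218, 1405 and 257 CPM in mock and at 0.757, 30.6 and 4.69 CPM in neutral. Lyz2, the lysozyme of macrophages and neutrophils, was at 42.5, 288 and 128 CPM in mock and at 0.0473, 9.34 and 0.450 CPM in neutral. Mock library 2 was the highest for both genes. None was called, and globin genes share near-identical copies, so single globin values are uncertain.

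Markers of pyramidal neurons, the cells the tag is meant to reach, were low in mock and lower in neutral. Summed over 18 markers the level was 528, 290 and 277 CPM in mock and 52.6, 92.5 and 94.98 CPM in neutral, and the ranges did not overlap. Of 17 tested members 8 (47.1%, against 15.9% of all genes) had the neutral libraries below and none above, and the median log2 fold change was -3.13. Without mock library 2 the number below was 13, beside 24.4% of all genes. Neurod1, Tbr1 and Spink8 had 0 counts in every neutral library. Camk2a, a kinase of excitatory neurons, was at 68.6, 9.53 and 69.9 CPM in mock and at 9.69, 6.48 and 12.5 CPM in neutral, and the groups overlapped. Nrgn, the postsynaptic calmodulin binder neurogranin, was at 49.1, 49.3 and 16.5 CPM in mock and at 10.8, 19.3 and 9.20 CPM in neutral, again with overlap. Dkk3, a secreted protein gene of pyramidal cells, was at 233, 75.8 and 79.4 CPM in mock and at 5.74, 12.7 and 21.03 CPM in neutral. Other than Dkk3, no marker of the list exceeded 69.9 CPM in any of the 6 libraries, while Ttr alone was at 20730 CPM or more in each neutral library.

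Interneuron and pan-neuronal markers were low as well. Gad1, which makes GABA, was at 7.96, 7.03 and 4.09 CPM in mock and at 0, 1.46 and 0 CPM in neutral. Of 12 interneuron markers tested 6 (50%, against 15.9% of all genes) had the neutral libraries below. The pan-neuronal list was divided, with 7 of 15 (46.7%) below. The 2 above, Nefh and Eno2, are 13.3% of the list, under the 16% of all genes. Its summed levels of 324 to 522 CPM in mock and 218 to 446 CPM in neutral overlapped. Snap25, a protein of vesicle fusion, was at 136, 117 and 44.1 CPM in mock and at 24.4, 15.1 and 21.2 CPM in neutral. Eno2, the neuronal enolase, was at 27.0, 13.1 and 13.7 CPM in mock and at 195, 33.2 and 95.7 CPM in neutral, in the opposite order to Snap25.

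**Figure D4:**
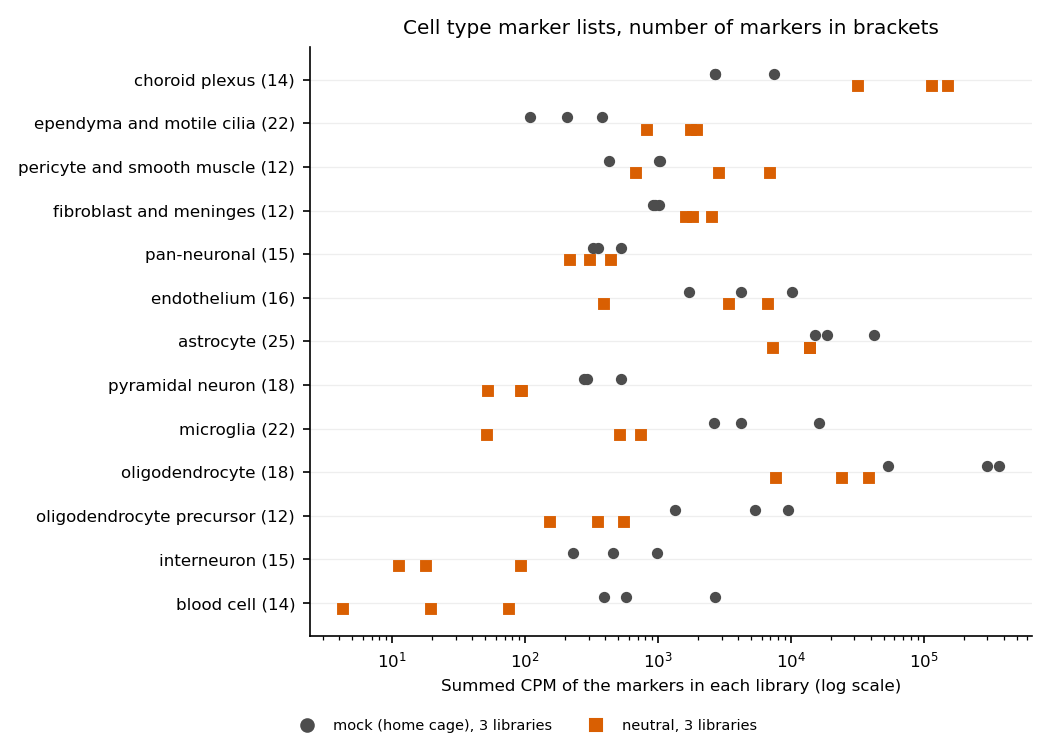
Summed CPM of each cell type marker list in the 3 mock libraries (grey circles) and the 3 neutral libraries (orange squares), on a log axis, ordered by the ratio of the group medians. Choroid plexus markers sum to between 31790 and 150900 CPM in neutral and to at most 7441 CPM in mock, while pyramidal neuron markers sum to at most 94.98 CPM in neutral.

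The ionotropic glutamate receptors carry fast excitatory transmission. Of 17 tested subunits 12 (70.6%, against 15.9% of all genes) had every neutral library below mock and 1, Grik5, above. The median log2 fold change was -4.95, and none was called. Gria2, the AMPA receptor subunit that limits calcium entry, was at 130, 31.4 and 97.6 CPM in mock and at 0.221, 0 and 0.180 CPM in neutral. The log2 difference was -9.32 ± 1.64 (SE), and edgeR's quasi-likelihood test gave an adjusted p of 0.075. Gria1 was at 45.6, 6.41 and 18.0 CPM in mock and at 0.536, 0.497 and 4.42 CPM in neutral. Grin2c, an NMDA receptor subunit found in astrocytes and few hippocampal neurons, was at 111, 23.6 and 43.9 CPM in mock and at 0, 0.670 and 0 CPM in neutral. Grik5, a kainate receptor subunit, was at 12.1, 5.73 and 10.8 CPM in mock and at 19.8, 12.7 and 24.2 CPM in neutral. The number with the neutral libraries below was 11 to 15 with 1 mock or neutral library left out, beside 19% to 25.4% of all genes.

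GABA-A receptor subunits form the chloride channels of fast inhibition. The neutral libraries were below for 5 of 12 tested members (41.7%, against 15.9% of all genes) and above for none, with a median log2 fold change of -3.58. Without mock library 2 the number below was 9, beside 24.4% of all genes. Gabrg1, a gamma subunit also found in glia, was at 163, 51.1 and 52.9 CPM in mock and had a single count in neutral library 1 and none in the others (adjusted p = 0.0675, edgeR's quasi-likelihood test). Gabra4 was at 35.4, 7.86 and 14.7 CPM in mock and at 10.7, 7.72 and 5.28 CPM in neutral, with overlap.

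Genes of synaptic vesicles and secretory granules included 1 called member, Scg3. It encodes secretogranin III, a granule protein of neurons, endocrine cells and astrocytes. Scg3 was at 541, 238 and 238 CPM in mock and at 4.46, 7.36 and 13.9 CPM in neutral, which is -5.31 ± 0.72 (SE) on the log2 scale, and edgeR's quasi-likelihood test gave an adjusted p of 0.0482. Of 27 tested members 10 (37%, against 15.9% of all genes) had the neutral libraries below. The 3 above (11.1%) were under the 16% of all genes. Cpe, the carboxypeptidase that trims peptide hormones, was at 5856, 2892 and 1340 CPM in mock and at 111, 480 and 333 CPM in neutral. Vamp2, the vesicle SNARE of neurons, was at 165, 123 and 114 CPM in mock and at 245, 175 and 195 CPM in neutral, in the opposite order. Synaptic adhesion and scaffold genes had the neutral libraries below in 8 of 22 members (36.4%) and above in none. Dlgap1, a postsynaptic scaffold gene, overlapped, at 91.7, 29.3 and 48.9 CPM in mock and at 320, 59.7 and 184 CPM in neutral.

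**Figure D5:**
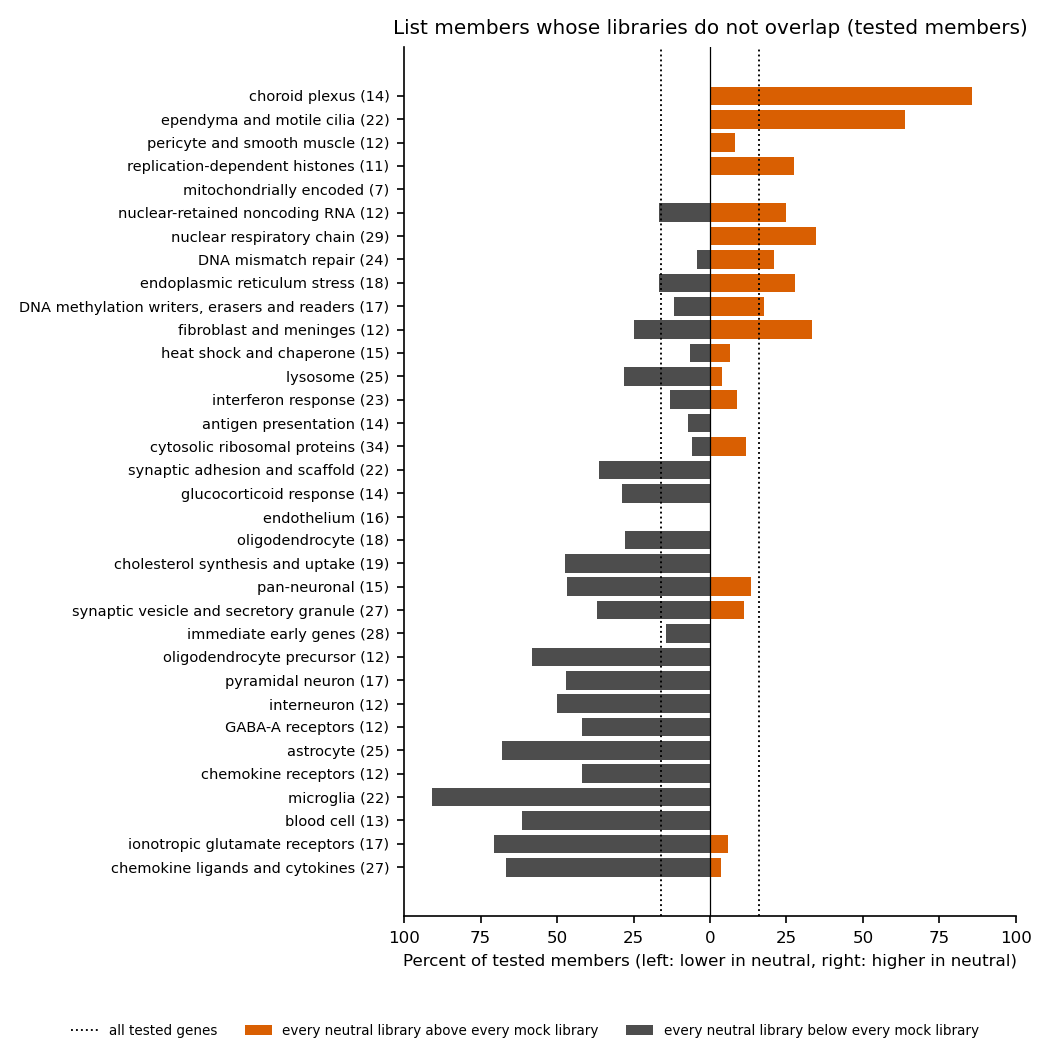
For each gene list, the percent of its tested members whose neutral libraries all lay above (orange, right) or all lay below (grey, left) the 3 mock libraries, with lists ordered by their median log2 fold change. Dotted lines mark the 16% and 15.9% of all tested genes. The longest bars are those of choroid plexus (12 of 14 members, above) and microglia (20 of 22 members, below).

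Myelin genes fell into 2 patterns. Mbp was at 264500, 217400 and 23230 CPM in mock and at 17460, 7666 and 4847 CPM in neutral, and Mobp, another myelin protein gene, at 88000, 62770 and 9420 CPM in mock and at 4566, 2073 and 1327 CPM in neutral. Every neutral library lay below mock for both, although mock library 3 was near neutral library 1. Cnp, an enzyme of myelin, was at 2195, 1912 and 2571 CPM in mock and at 360, 2873 and 245 CPM in neutral, where neutral library 2 lay above all mock libraries. Of 18 oligodendrocyte markers 5 (27.8%, against 15.9% of all genes) had the neutral libraries below and none above. Without neutral library 2 the number was 17, beside 25.4% of all genes. The oligodendrocyte precursor list had the neutral libraries below in 7 of 12 members (58.3%). Bcas1, which marks cells at the onset of myelination, was at 9003, 5043 and 855 CPM in mock and at 286, 59.1 and 62.9 CPM in neutral, and Cspg4, the NG2 proteoglycan gene that pericytes share, was at 7.29, 8.33 and 47.4 CPM in mock and at 11.6, 116 and 36.8 CPM in neutral. None of these genes was called.

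Single vascular markers overlapped between the groups for the most part. All 16 endothelial markers overlapped between neutral and mock, although 15 had a log2 fold change below 0. Cldn5, the tight junction claudin of brain vessels, was at 96.7, 503 and 315 CPM in mock and at 26.1, 982 and 501 CPM in neutral. Without mock library 1, 5 of the 16 had the neutral libraries below, beside 21.2% of all genes. The log2 fold change was above 0 for 11 of 12 pericyte and smooth muscle markers, with a median of 1.35. Of the 12 markers 1 (8.33%, under the 16% of all genes) had the neutral libraries above. This was Acta2, the smooth muscle actin gene, at 29.1, 288 and 226 CPM in mock and at 446, 3136 and 1663 CPM in neutral. Without neutral library 1 the number above was 6, beside 21.5% of all genes. In fibroblast and meningeal markers 4 of 12 (33.3%) had the neutral libraries above and 3 (25%) below, against 16% and 15.9% of all genes. Their summed levels did not overlap, at 1017, 912 and 941 CPM in mock and 1838, 2546 and 1633 CPM in neutral. Igf2, insulin-like growth factor 2, which choroid plexus also makes, was at 0.597, 0 and 1.62 CPM in mock and at 120, 10.8 and 67.3 CPM in neutral, and Ptgds, a prostaglandin synthase of meninges and choroid plexus, was at 890, 758 and 807 CPM in mock and at 1623, 2300 and 1379 CPM in neutral. The 3 members with the neutral libraries below were Col1a1, Dcn and Pdgfra.

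Immediate early genes, which report recent activity and on whose Fos promoter the tag rests, overlapped between the groups for the most part. Fos was at 455, 1647 and 1592 CPM in mock and at 1051, 801 and 234 CPM in neutral, a log2 fold change of -0.82 ± 0.78 (SE) with an adjusted p of 0.789 in edgeR's quasi-likelihood test. Arc, an activity-regulated gene of excitatory synapses, was at 25.8, 22.2 and 30.4 CPM in mock and at 1.62, 128 and 19.4 CPM in neutral, where neutral library 2 was the highest and neutral library 1 the lowest of the 6. Jun was at 214, 652 and 1675 CPM in mock and at 273, 569 and 183 CPM in neutral. Of the 28 members 4 had the neutral libraries below mock, namely Fosb, Dusp6, Bdnf and Atf3, and none above, which is near the 15.9% of all genes. The number was 16 of 27 tested without mock library 1, beside 21.2% of all genes, and 14 of 27 without neutral library 2, beside 25.4%. The median log2 fold change was -1.70, while the summed levels of 2493, 10590 and 9072 CPM in mock and 3520, 4807 and 1439 CPM in neutral overlapped.

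Of 14 glucocorticoid response genes 4 (28.6%, against 15.9% of all genes) had the neutral libraries below and none above, and the level summed over the list was 2118, 2461 and 1454 CPM in mock and 1237, 924 and 1001 CPM in neutral, without overlap. Mt1, a metallothionein gene, was at 982, 718 and 390 CPM in mock and at 261, 109 and 161 CPM in neutral, and Tsc22d3, the glucocorticoid-induced leucine zipper gene GILZ, was at 396, 496 and 184 CPM in mock and at 19.0, 135 and 71.3 CPM in neutral. Sgk1, a kinase induced by glucocorticoids, overlapped, at 294, 459 and 481 CPM in mock and at 719, 167 and 481 CPM in neutral. Heat shock and chaperone genes had 1 of 15 members (6.67%) in each direction, under the 16% and 15.9% of all genes. Hsp90ab1, a cytosolic chaperone gene, was at 827, 1386 and 789 CPM in mock and at 811, 778 and 962 CPM in neutral. Of 18 endoplasmic reticulum stress genes 5 (27.8%) had the neutral libraries above, namely Pdia6, Xbp1, Sdf2l1, Creld2 and Manf. The 3 below (16.7%), Canx, Dnajb9 and Asns, were near the 15.9% of all genes. Pdia6, a disulfide isomerase gene, was at 167, 249 and 216 CPM in mock and at 593, 381 and 588 CPM in neutral. Interferon response genes had 2 of 23 members above (8.7%) and 3 below (13%), under the shares of all genes. Ifi27 was at 64.5, 152 and 80.4 CPM in mock and at 779, 192 and 739 CPM in neutral. Antigen presentation genes had 1 of 14 below (7.14%), again under the share of all genes. This was B2m, the light chain of MHC class I, at 216, 1025 and 417 CPM in mock and at 107, 191 and 207 CPM in neutral.

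Metabolic genes divided by pathway. Of 19 tested genes of cholesterol synthesis and uptake 9 (47.4%, against 15.9% of all genes) had the neutral libraries below and none above. The median log2 fold change was -1.18. Hmgcs1, which makes the HMG-CoA of the pathway, was at 345, 224 and 258 CPM in mock and at 65.3, 63.9 and 38.3 CPM in neutral, and Msmo1, a sterol methyl oxidase gene, was at 472, 285 and 275 CPM in mock and at 106, 150 and 96.7 CPM in neutral. Of 29 nuclear genes of the respiratory chain 10 had the neutral libraries above, against 16% of all genes, and none below, with a median log2 fold change of 0.66. The number above was 18 without neutral library 2, beside 26.1% of all genes. It was 16 with scaling by library size alone, beside 16.5%, and 6 after thinning, beside 13.6%. Without mock library 3 there were 4 below, beside 19% of all genes. The 4 most abundant of the 29, Cox4i1 among them, overlapped. Cox4i1, a subunit of cytochrome c oxidase, was at 813, 910 and 352 CPM in mock and 1595, 670 and 1505 CPM in neutral. The mitochondrially encoded genes overlapped in all 7 members tested. mt-Cytb, cytochrome b, was at 9510, 10020 and 4439 CPM in mock and at 30410, 6792 and 10450 CPM in neutral, and 6 further members, which had 0 counts in every neutral library and 0 to 63 counts in mock, were not tested. None of the metabolic genes was called.

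Genes that no neutral read reached were far more numerous than the reverse. With at least 10 counts in each mock library, 400 genes had 0 counts in every neutral library, 316 of them protein-coding, against the 5 genes of the opposite kind. The neutral libraries were the deeper ones, and 3 counts correspond to 0.0347 to 0.0473 CPM in them and to 0.0415 to 0.156 CPM in mock. Ccl4, Ccl3 and Fam163a had the highest mock levels among the 400.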

How the data were processed

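RNA from sorted hippocampal material, named as cells or as nuclei in the sources, of 10 libraries in 4 groups was analysed, and neutral was compared with mock. The authors mapped the first 40 bases of each read to mm10 (GRCm38) with STAR, indexed with Ensembl annotation, and counted reads per gene with featureCounts of Subread without regard to strand. Versions are not given in the sources used here. The deposited values are raw counts for 53379 Ensembl genes, of which 53274 were matched to GENCODE M21 for names and positions. Without strand, reads of overlapping and antisense genes cannot be told apart, and reads shared by near-identical genes are uncertain. Intervals and floors of 3 counts in a single library cover counting error only, and fold bounds take the highest floor of the group at 0.

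Counts of all 10 libraries, 16968588 to 67650693 per library, were fitted with edgeR 4.0.16 in R 4.3.3 (filterByExpr by group, TMM scaling, quasi-likelihood F test, 2-sided) with the groups as the only term, and p-values were adjusted by Benjamini-Hochberg over the 19754 genes kept. Fold changes are on edgeR's log2 scale. Lists are described by counts and medians with no set test. Alternatives were DESeq2 1.42.0, other scalings and filters, subsets of libraries, a replicate block, thinning, and leaving out each library. The fit was tested on simulated data before use and missed most of the genes changed there, so a gene not called here may still differ. The genes and lists were chosen with earlier results of these data known. Named were all called genes, up to 10 genes of smallest p-value in a direction with fewer than 10 called, called and up to 4 most abundant tested members of each list, Fos, Arc, Ttr, and the 3 most abundant genes absent from the other group, and any other gene was named after its values were seen. Nov, Dnai1 and Dnai2 of the lists were looked up under the files' symbols Ccn3, Dnaic1 and Dnaic2. The EYFP transgene was not analysed here, and some genes that the rule names are not reported here. Sequences are from RefSeq tables on GRCm38.p6, and 40-base windows were compared across GENCODE M21 transcripts with Python.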

Additional observations from a re-analysis of the deposited data

How the results depend on the processing

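Genes called between neutral and mock numbered 17 (1 higher, 16 lower). Scaling by library size alone gave 8 (7 lower), no filter on low counts 520 (79 higher, 441 lower), and at least 10 counts in every library 51 (21 and 30, of 4661 genes tested). The 6 neutral and mock libraries alone gave 0 by edgeR, with 3791 genes at an unadjusted p under 0.05. The smallest adjusted p there was 0.0501 in edgeR's quasi-likelihood test, so the threshold was just missed. Under an adjusted p of 0.1 in that test were 883 higher and 1134 lower genes, against 10 and 40 with all 10 libraries. DESeq2 on the same 6 libraries called 3857 (1377 and 2480). DESeq2 on 10 libraries called 1573 (390 and 1183). Without the aversive group edgeR called 0 (2976 unadjusted), and without the appetitive group 61 (10 and 51). Leaving out 1 library gave 0 to 84 calls (0 to 17 higher, 0 to 67 lower). The cause of these shifts was not tested. The 17 genes had the same direction in every setting that gave them a value, which their lack of overlap between the groups made near certain.

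Genes whose groups did not overlap numbered 3164 higher and 3149 lower, and 1065 and 641 with at least 10 counts in every library, where fewer genes were tested. With 1 library left out, where fewer libraries make overlap rarer, they ran from 3096 to 4915 and from 3444 to 4830. Requiring 30 counts gave 172 genes at 0 in neutral and 1 at 0 in mock, and leaving out 1 library 416 to 691 and 7 to 67.

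List medians changed sign in some of the 21 settings for fibroblast (15), interferon (4), antigen presentation (4), heat shock (2), ribosomal, lysosome and mismatch repair (1 each), and in none for the other lists. Over these settings the median ran from -7.82 to -1.31 on the log2 scale for ionotropic glutamate receptors, -7.17 to -0.87 for chemokine ligands and cytokines, -4.80 to -0.29 for chemokine receptors, -3.16 to -0.27 for oligodendrocytes, -6.63 to -2.15 for GABA-A receptors, -5.03 to -2.83 for microglia, -4.48 to -2.92 for astrocytes and 3.77 to 5.32 for choroid plexus. The replicate block on the 6 libraries gave 0 calls by edgeR (3239 unadjusted). Deviations of same-numbered mock and neutral libraries correlated at 0.188, 0.111 and 0.0366, so the numbers do not pair the libraries by a minimum of 0.1, although each library correlated best with its own number, which is a hint from the data and not from the design.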

Other observations

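Nuclear-retained noncoding RNA was higher in the neutral libraries as a sum, at 920, 1495 and 1340 CPM in mock and 5074, 5960 and 4166 CPM in neutral. The sum was 2835 and 9956 CPM in the aversive and 3015 and 9073 CPM in the appetitive libraries. These too lay above every mock library, so the rise over mock was not particular to neutral. Malat1, which is held in nuclear speckles, was at 555, 1263 and 978 CPM in mock and at 4499, 5572 and 3749 CPM in neutral, and Neat1, the scaffold of paraspeckles, was at 54.9, 59.5 and 119 CPM in mock and at 253, 182 and 244 CPM in neutral. Of the 12 members 3 (25%, against 16% of all genes) had every neutral library above mock. Rian and Pantr1 (16.7%, near the 15.9% of all genes) had every neutral library below. None was called by edgeR's quasi-likelihood test. Whether cells or nuclei were sorted is not settled by the sources, and its part in these levels was not tested. Against the 16% of all genes that had the neutral libraries above, replication-dependent histone genes had 3 of 11 tested members above and none below, DNA methylation writers, erasers and readers 3 of 17 above and 2 below, and mismatch repair genes 5 of 24 above and 1 below. These numbers moved with the setting. For mismatch repair the number above was 2 with DESeq2 size factors or on the 6 libraries alone and 9 without neutral library 1. For histones it was 1 of 10 after thinning and 6 of 10 without neutral library 2. For DNA methylation it was 2 on the 6 libraries alone and 7 without mock library 3. The share of all genes above was 15.5% with DESeq2 size factors, 15.3% on the 6 libraries alone and 13.6% after thinning. It was 21.5% without neutral library 1, 26.1% without neutral library 2 and 21.9% without mock library 3. Mbd2, a reader of methylated DNA, was at 14.8, 35.4 and 5.24 CPM in mock and at 98.4, 115 and 59.5 CPM in neutral, while Dnmt3a, a de novo methyltransferase, was at 27.2, 22.9 and 71.8 CPM in mock and at 146, 80.0 and 65.3 CPM in neutral, with overlap. Cytosolic ribosomal protein genes had 4 of 34 members above (11.8%) and 2 below (5.88%), under the 16% and 15.9% of all genes. Without mock library 3 the number below was 16, beside 19% of all genes. Lysosomal genes had 1 of 25 above (4%) and 7 below (28%), and Ctsb and Ctsd, the most abundant cathepsins of the list, overlapped.

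Pseudogenes had the neutral libraries above in 3.56% and below in 28.4% of 1545 tested genes, beside 17.9% and 15.1% of 15059 protein-coding genes and 14.2% and 15.9% of 2134 long noncoding genes. The split also moved with expression level, from 2.78% above and 24.8% below in the lowest of 5 equal expression classes to 27.5% and 11.1% in the highest, and the part of expression level in the pseudogene values was not tested. With genes ranked by exon length into 5 equal classes, the median log2 fold change was 0 in the shortest class and 0.42, 0.13, -0.05 and -0.06 in those that follow. The part of kit, sequencer and read length in these values was not tested.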
